A study of Mus musculus with 6 samples.

Results

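The genes described here are 10 acute-phase and IL-6 family genes, Saa1, Saa2, Saa3, Lcn2, Hp, Orm1, Il6, Il6st, Osm and Lif, measured in mouse spleen after total body irradiation. They were found by symbol among the non-control spots of 6 single-colour (Cy3) microarrays, where each has 1 probe, so that 10 of 55681 distinct probes were taken; Il6 has its probe on 2 spots, which makes 11 spots in all. The spleens came from mice of strain B10.BALB-16.C2A, either resting mice given 0 cGy or mice taken 24 h after 900 cGy of X-rays to the whole body. Every array holds the RNA of a pool of 3 mice, and each group has 3 separate pools, so that the spread given below is between pools and not between mice. The labels name the tissue as spleen and, at the extraction step, whole splenocytes; in such bulk RNA fewer cells of a type and less RNA per cell cannot be told apart. The 9 B cell markers, the 10 T cell markers and the 13 macrophage markers listed for spleen were all well above background on every array of at least 1 group.

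Acute-phase proteins are plasma proteins whose amounts change during inflammation, most of them made by the liver under the control of IL-6, IL-1 and TNF. IL-6, oncostatin M (Osm), leukaemia inhibitory factor (Lif), IL-11 and their relatives form a cytokine family that signals through a shared receptor chain, gp130, the product of Il6st, and from there through JAK kinases and STAT3. Outside the liver, Lcn2 and Hp are also made by maturing neutrophils and stored in their granules, and Saa3 is made by macrophages, fat and epithelia. Values below are log2 processed intensities relative to the 75th percentile of the same array, so that a value of 0 is a spot as bright as that percentile and a difference of 1 is a doubling. Levels of different probes are not compared with each other.

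Saa3 had the largest change of the tested genes, and the serum amyloid A sequences are shown first because they lie together and resemble one another to different degrees. The probes of Saa3, Saa1 and Saa2 lie on chromosome 7 of mm9, at chr7:53970389-53970448, chr7:53996070-53996129 and chr7:54009622-54009681, and span 39.3 kb. Saa1 and Saa2 are near-identical copies, and the RefSeq table lists each symbol as a synonym of the other, so that RNA of one may bind the probe of the other and the split of signal between them is uncertain. The probes of Saa1 and Saa3, 60 bases each, show which stretch of RNA was read for the genes that were bright enough to test.
Saa1 probe: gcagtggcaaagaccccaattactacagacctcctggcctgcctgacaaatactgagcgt
Saa3 probe: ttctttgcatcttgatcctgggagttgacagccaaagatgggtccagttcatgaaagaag

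The 250 bases before the start of each gene are printed 5′ to 3′ from RefSeq (GRCm38.p6) for the 3 serum amyloid genes and, for contrast, for Lcn2, which did not pass the test. They lie on chromosome 7 at 46742981 to 46743230 (Saa1, minus strand), 46751583 to 46751832 (Saa2, plus strand) and 46715677 to 46715926 (Saa3, minus strand), and on chromosome 2 at 32387740 to 32387989 (Lcn2, minus strand). Capitals mark matches, on either strand, to the C/EBP core TTGCNNAA, a motif of transcription factors known for acute-phase control.
Saa1 upstream: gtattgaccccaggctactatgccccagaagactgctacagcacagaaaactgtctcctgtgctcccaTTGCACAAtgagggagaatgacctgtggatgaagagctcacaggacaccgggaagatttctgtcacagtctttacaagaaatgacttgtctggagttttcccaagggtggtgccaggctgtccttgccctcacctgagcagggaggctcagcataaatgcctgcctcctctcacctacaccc
Saa2 upstream: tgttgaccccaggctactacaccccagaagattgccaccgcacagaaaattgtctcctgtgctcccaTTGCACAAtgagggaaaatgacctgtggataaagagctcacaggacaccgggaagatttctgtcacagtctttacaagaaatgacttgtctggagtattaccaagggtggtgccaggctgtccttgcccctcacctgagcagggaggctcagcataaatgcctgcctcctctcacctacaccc
Saa3 upstream: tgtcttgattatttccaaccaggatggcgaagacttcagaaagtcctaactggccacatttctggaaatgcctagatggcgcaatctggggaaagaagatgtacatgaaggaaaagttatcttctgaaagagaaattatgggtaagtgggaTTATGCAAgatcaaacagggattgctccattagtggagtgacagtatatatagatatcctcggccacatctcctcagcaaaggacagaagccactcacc
Lcn2 upstream: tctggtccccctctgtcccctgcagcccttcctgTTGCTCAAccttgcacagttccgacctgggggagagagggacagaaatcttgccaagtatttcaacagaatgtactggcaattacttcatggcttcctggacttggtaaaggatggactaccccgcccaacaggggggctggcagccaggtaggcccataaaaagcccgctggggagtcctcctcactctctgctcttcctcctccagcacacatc

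In a global alignment the upstream sequences of Saa1 and Saa2 shared 94.8% of positions, while Saa3 shared 48.5% with Saa1 and 47.8% with Saa2. RefSeq upstream sequence was matched for 7 of the 10 genes (also Il6, Il6st and Lif). The C/EBP core was found in 5 of the 7, namely Saa1, Saa2, Saa3, Lcn2 and Il6, and in 9.57% of 32817 promoters of the same length. It stands 182 to 175 bases before the start in Saa1 and 183 to 176 in Saa2 with the same letters, TTGCACAA, and on the other strand in Saa3 (99 to 92 bases before). The gene that rose most and Lcn2, which did not pass, thus both hold a match. A NF-kB motif, searched as GGG and TTCC with any 3 bases between them, was found in Il6 alone, as GGGATTTTCC at 44 to 35 bases before the start, and in 4.65% of all promoters. The STAT motif TTCNNNGAA and the TATA box TATAAA, present in 7.01% and 12.4% of all promoters, had no match in these 7 windows. None of these motifs overlapped another, and a match describes letters, not binding.

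Of the 10 genes, 9 passed the filter on dim probes (every array of 1 or both groups had to be well above background), and Saa2 did not. Saa1, Saa3, Hp, Il6, Il6st and Lif were higher after irradiation and Osm was lower (adjusted p under 0.05, limma with Benjamini-Hochberg adjustment over 39670 probes). Lcn2 and Orm1 did not pass. On these arrays 57.5% of all tested probes were called, 26.4% as higher and 31.1% as lower, so that a call by itself says little about a gene. The groups did not overlap for 7 of the 9 tested genes and for 65.7% of all tested probes. All 6 genes that rose did so by at least 2-fold in measured means, where 12.9% of all tested probes did. Lif passed the filter only through the irradiated arrays, and its call is given as a description for that reason. The median log2 change of all probes tested was -0.07, and 46.0% of the called probes were higher; scaled to the spike-in probes instead, these were -0.34 and 29.4%, and all 7 calls held.

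**Figure D1:**
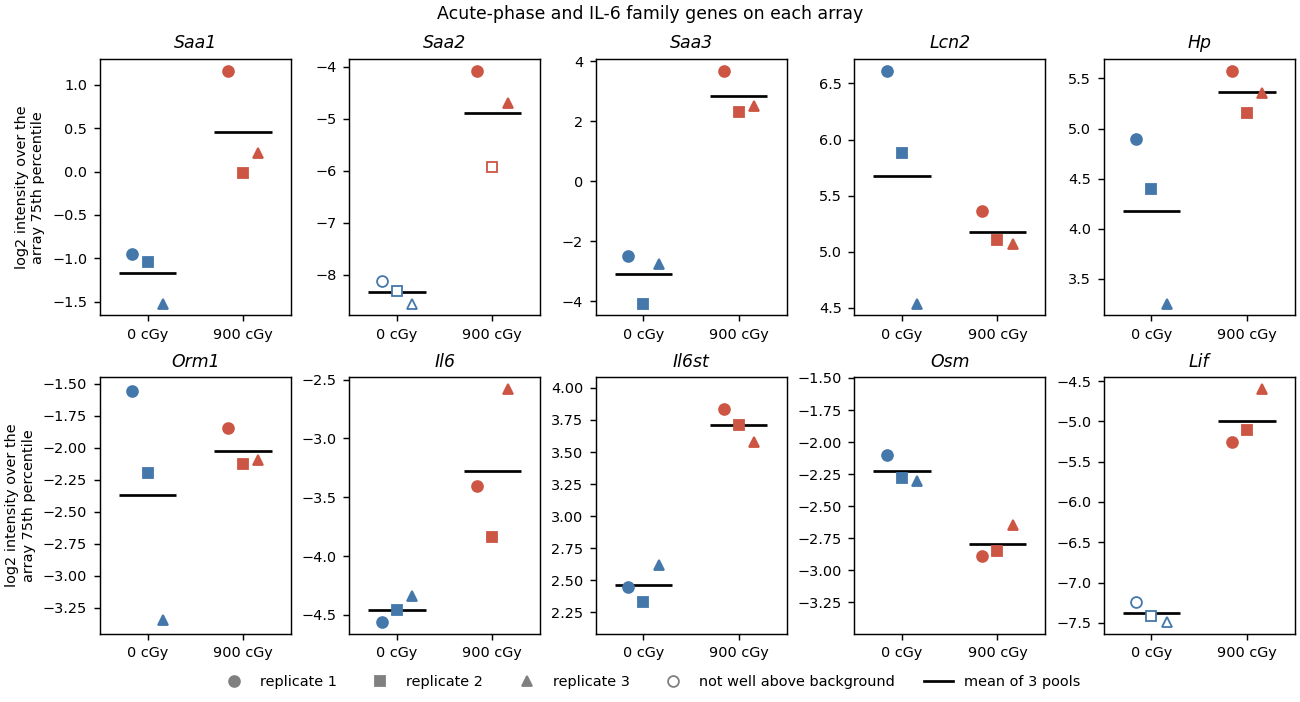
Log2 processed intensity over the array's 75th percentile (vertical axis, its range differing between panels) of the 10 genes on each of the 3 unirradiated (0 cGy) and 3 irradiated (900 cGy) arrays; symbols are replicates, bars are means and open symbols are not well above background. The groups do not overlap for 8 genes, 7 of them tested, and for 65.7% of all tested probes. For Lcn2 and Orm1 the irradiated arrays lie inside the range of the unirradiated ones.

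Saa3, a serum amyloid made largely outside the liver, was the gene that differed most. It stood at -2.50, -4.08 and -2.75 on unirradiated arrays 1 to 3 and at 3.68, 2.31 and 2.49 on the irradiated ones. Each irradiated pool lay far above each unirradiated pool. The means were -3.11 ± 0.85 and 2.83 ± 0.75 (SD, n = 3 pools each), a 61.3-fold difference (log2 change 5.94 ± 0.52 SE, limma adjusted p = 0.000201, 95% interval 4.69 to 7.19), and it ranked 40th by log2 change among the 39670 tested probes. Within slide row 1, which holds the 3 unirradiated arrays and irradiated replicate 1, the log2 change was 6.79.

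Saa1, a major circulating acute-phase serum amyloid, moved in the same direction by less. It stood at -0.95, -1.04 and -1.52 without irradiation and at 1.16, -0.02 and 0.21 with it. Irradiated replicate 1 was the highest array for Saa1, as it was for Saa2 and Saa3. The means were -1.17 ± 0.31 and 0.45 ± 0.63, a 3.07-fold difference (log2 change 1.62 ± 0.33 SE, limma adjusted p = 0.00562), or 1.26 without irradiated replicate 1.

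Saa2, its near-identical neighbour, was dim. On no unirradiated array was it well above background (-8.12, -8.32 and -8.55), and it was so on 2 of 3 irradiated arrays (-4.08 and -4.69, with -5.93 on replicate 2). The mean of the irradiated arrays, with replicate 2 as measured, was at least 2.50-fold higher than that of the unirradiated ones. This was counted from the lowest signal that was well above background on each unirradiated array. Measured means were -8.33 and -4.90, a log2 difference of 3.43, which fell to 0.83 with normexp background correction, under that bound. That correction adds an offset of 50 to each intensity, which shrinks differences of dim genes, here and below.

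Hp encodes haptoglobin, which binds free haemoglobin (probe at chr8:112099045-112099104, mm9, as for all probe positions here). It stood at 4.90, 4.39 and 3.25 without irradiation and at 5.58, 5.15 and 5.36 with it. The irradiated arrays were all above the unirradiated ones, which were spread more widely. The means were 4.18 ± 0.84 and 5.36 ± 0.21 (log2 change 1.18 ± 0.40 SE, limma adjusted p = 0.0423). This call did not hold with slide row as a block (1.39, limma adjusted p = 0.111), within slide row 1 (1.39, limma adjusted p = 0.149), with no filter on dim probes (limma adjusted p = 0.0744), or when unirradiated replicate 2 or 1 of the irradiated pools was left out (limma adjusted p between 0.0696 and 0.109), and the change was 0.72 without unirradiated replicate 3, where the gene passed.

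Lcn2 encodes lipocalin 2, which withholds iron from bacteria by binding their siderophores (probe at chr2:32240199-32240258). Its signal was strong on every array, at 6.61, 5.88 and 4.54 without irradiation and 5.37, 5.10 and 5.07 with it. The irradiated pools fell inside the range of the unirradiated pools, of which replicate 3 was far below the others. The log2 change was -0.50 with a 95% interval of -1.68 to 0.68 (limma adjusted p = 0.421). Without unirradiated replicate 3 it was -1.07 and passed as lower (limma adjusted p = 0.0129).

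Orm1 encodes orosomucoid 1 (alpha-1-acid glycoprotein), a carrier of small molecules in plasma, and its probe lies within chr4:63006483-63007090. It stood at -1.56, -2.19 and -3.34 without irradiation and at -1.85, -2.13 and -2.09 with it. The groups overlapped, and the unirradiated arrays had the same order as for Lcn2 and Hp. The log2 change was 0.34, with a 95% interval of -0.68 to 1.36 (limma adjusted p = 0.525), and it was -0.15 without unirradiated replicate 3. Its paralogue Orm2, a close copy whose RNA the probe may share, stood at -1.41, -1.97 and -3.03 without irradiation and at -1.62, -1.80 and -2.01 with it.

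Il6st, the shared receptor chain gp130, had the smallest standard error of the genes that rose, and its probe lies at chr13:113296586-113296645. It stood at 2.45, 2.33 and 2.61 without irradiation and at 3.84, 3.71 and 3.58 with it. Both groups were tight and well apart. The means were 2.46 ± 0.14 and 3.71 ± 0.13, a 2.37-fold rise (log2 change 1.25 ± 0.12 SE, limma adjusted p = 0.000247), and over 18 alternatives the change lay between 0.98 and 1.37.

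Il6 itself (probe at chr5:30346367-30346426) was dim but well above background on every array. It stood at -4.56, -4.46 and -4.34 without irradiation and at -3.40, -3.84 and -2.58 with it. All irradiated pools were higher, replicate 3 the most. The means were -4.45 ± 0.11 and -3.27 ± 0.64, a 2.27-fold rise (log2 change 1.18 ± 0.30 SE, limma adjusted p = 0.0153). With slide row as a block the change was 1.05 and did not pass (limma adjusted p = 0.115), an estimate that rests on irradiated replicate 1 alone since row 2 holds no unirradiated array, and with normexp background correction it was 0.71.

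Lif, a cytokine that acts through gp130 paired with the Lif receptor, (probe at chr11:4172032-4172091) was well above background on 0 of 3 unirradiated arrays (-7.24, -7.42 and -7.49) and on 3 of 3 irradiated arrays (-5.26, -5.11 and -4.60). It was at least 2.35-fold higher after irradiation, counted as for Saa2, a bound that was not itself tested. The test was of the measured means, -7.38 ± 0.13 and -4.99 ± 0.35 (log2 change 2.39, limma adjusted p = 0.000137). It rests on unirradiated signals that were not well above background. With normexp background correction the log2 change was 0.50, under the 2.35-fold bound.

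Osm encodes oncostatin M, a family member secreted by myeloid cells and T cells, and was the gene that fell (probe at chr11:4140146-4140205). It stood at -2.10, -2.28 and -2.30 without irradiation and at -2.89, -2.85 and -2.65 with it. The groups did not overlap. The means were -2.23 ± 0.11 and -2.80 ± 0.13 (log2 change -0.57 ± 0.11 SE, limma adjusted p = 0.00457), and within slide row 1 the change was -0.66 (limma adjusted p = 0.0517). Osm and Lif are neighbours, their probes spanning 31.9 kb of chromosome 11 of mm9, and went in opposite directions.

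**Figure D2:**
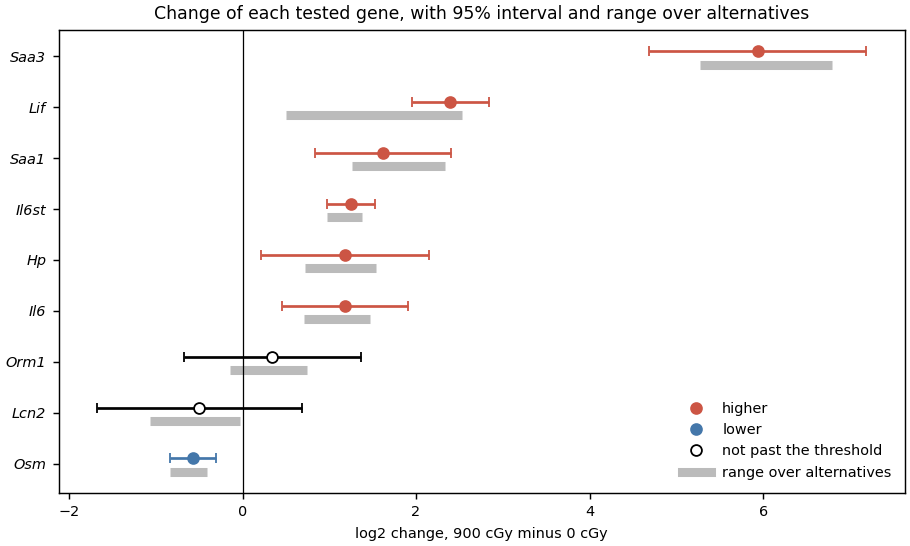
Log2 change, 900 cGy minus 0 cGy (horizontal axis), of the 9 tested genes, with the 95% interval from limma (thin bars) and the range over the alternative settings (grey bars). Saa3 lies apart at 5.94, and the grey bar of Lif reaches down to 0.50.

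The other genes of the acute-phase and IL-6 pathways were followed in 7 lists of 99 further genes, of which 90 were tested, 55 were higher and 8 were lower. Among all 26646 genes tested (each by its brightest tested probe) 28.0% were higher and 30.6% lower, and the median change was -0.06 on the log2 scale. With spike-in scaling 50 of the 90 were higher and 14 lower. The lists were chosen with earlier results of these data known, so that the counts, here and below, are a description and no test of an excess.

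Of 29 other acute-phase genes 23 were tested; 16 rose, 0 fell (2 with spike-in scaling) and 7 did not pass, and the median log2 change was 1.19. Hamp2, a hepcidin gene, rose 11.8-fold, from -3.79 ± 0.65 to -0.23 ± 0.28 (limma adjusted p = 0.000243). Itih4, an inter-alpha-trypsin inhibitor heavy chain, rose 9.53-fold, and Serpina3n, a secreted serine protease inhibitor, rose 9.02-fold, from -2.03 ± 0.23 to 1.15 ± 0.12. On the unirradiated arrays Hamp2 stood at -4.09, -3.05 and -4.25 and Itih4 at -3.92, -2.77 and -3.80, with replicate 2 highest in both, as in the exocrine pancreas list below. Smaller rises were those of Itih3 (log2 change 1.71), Cp, which encodes ceruloplasmin (1.82), and Hpx, which encodes haemopexin (0.76). The fibrinogen chains Fga and Fgb did not pass (log2 changes 0.04 and -0.44). The fibrinogen chain Fgg and Hamp, the other hepcidin gene, were well above background on 0 of 6 arrays, and Crp was so on 1 unirradiated array only. C3, the central complement component, rose by 1.19 on the log2 scale. Lbp, which binds bacterial lipopolysaccharide, and the metallothionein Mt2 did not pass (0.49 and 0.06), and in both unirradiated replicate 3 was the lowest array, as for Lcn2, Hp and Orm1. The metallothionein Mt1 rose by 0.80 on the log2 scale (limma adjusted p = 0.0359), and unirradiated replicate 3 was its lowest array as well.

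Among 9 other IL-6 family ligands 8 were tested, 2 rose, 2 fell and 4 did not pass, with a median log2 change of 0.12. Ctf1, cardiotrophin 1, rose 2.76-fold (limma adjusted p = 0.00011) and Il11 rose by 0.86 on the log2 scale. Cntf, the ciliary neurotrophic factor, had a log2 change of -1.30 and Clcf1, a cytokine that acts through the Cntf receptor, of -1.14, and both passed as lower. Both counts, of 8 ligands, are near the shares of 28.0% higher and 30.6% lower among all genes tested.

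Of 7 receptor chains tested, 4 rose, 2 fell and 1 did not pass. Osmr, the chain that pairs with gp130 for oncostatin M, rose from 1.29 ± 0.08 to 2.95 ± 0.10, a 3.14-fold change (limma adjusted p = 7.75e-05). Il11ra1 and Lifr rose by log2 changes of 1.33 and 1.29, close to that of Il6st, and Cntfr by 1.03. Il27ra and Il31ra, whose ligands are IL-27 and IL-31, had log2 changes of -1.82 and -1.55. Il6ra, the specific chain for IL-6, did not pass (0.23, limma adjusted p = 0.131).

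Downstream of gp130, 7 of 14 signalling genes rose, 1 fell (3 with spike-in scaling) and 6 did not pass (median log2 change 0.48). Cebpb, a C/EBP factor known to act on acute-phase genes, rose by 1.23 and Socs1, an inhibitor of JAK kinases, by 1.20. Socs3, the feedback inhibitor that binds gp130, rose by 1.08 and Stat3 by 0.59 by 1 of its 2 tested probes, while Jak1, Jak2 and Tyk2 did not pass. Stat5a was the gene that fell (-0.76). Of 16 genes listed as STAT3 targets, 10 rose, 2 fell and 4 did not pass (median 0.58). Timp1, an inhibitor of matrix metalloproteinases, rose 9.51-fold, from 0.15 ± 0.13 to 3.40 ± 0.16 (limma adjusted p = 5.63e-05), and the TNF receptor Tnfrsf1a and the AP-1 factor Fosl2 rose by log2 changes of 1.44 and 1.21. Pim1 fell by 0.65 on the log2 scale and Il4ra by 0.76, the latter by 1 of its 2 tested probes.

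Cytokines and receptors that induce the acute phase were higher in 12 of 16 cases and lower in 1 (2 with spike-in scaling), and 3 did not pass (median log2 change 1.1). Il1r2, the decoy receptor for IL-1, rose 4.55-fold, the alarmin Il33 4.48-fold and Il1b 4.40-fold (from -0.03 ± 0.34 to 2.11 ± 0.19). Tnf was the gene that fell, with a log2 change of -1.01 (limma adjusted p = 0.00045), although both of its receptors rose. Receptors and carriers of acute-phase proteins were higher in 10 of 12 cases, with 2 that did not pass (median 1.3). Hmox1, which degrades haem, rose 4.34-fold, Lrp1, the receptor for haem bound to haemopexin, 4.21-fold and Cd163, the macrophage receptor for haptoglobin with haemoglobin, 4.11-fold. Slc22a17, described as a receptor of lipocalin 2, rose by 1.27 on the log2 scale.

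**Figure D3:**
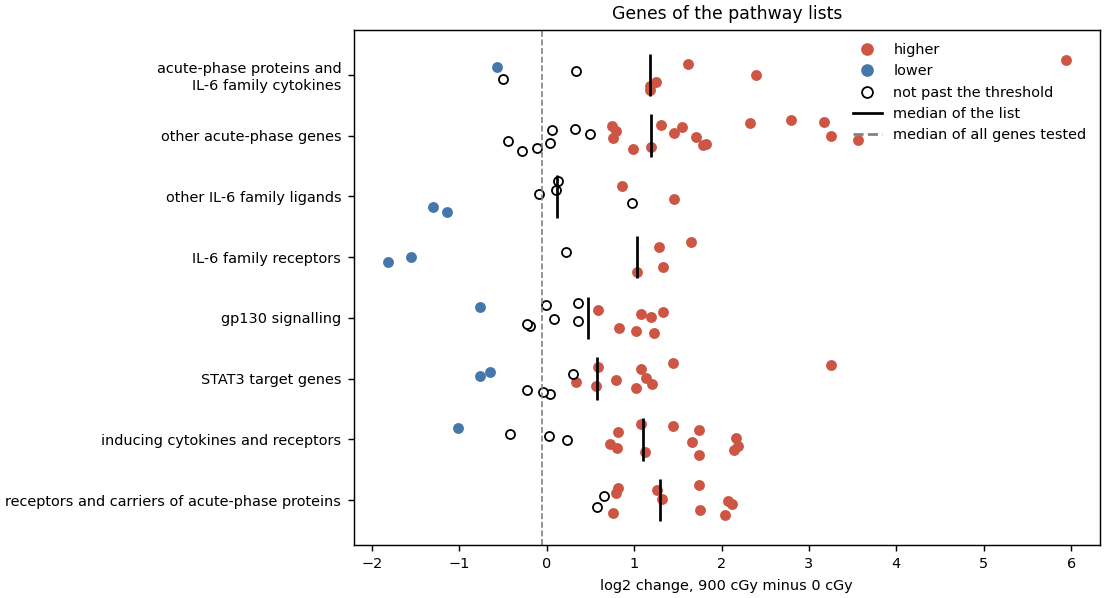
Log2 change, 900 cGy minus 0 cGy, of each tested gene of the 10 described here and of the 7 pathway lists (red higher, blue lower, open not past the threshold); black ticks are list medians and the dashed line is the median of all genes tested, -0.06. Acute-phase genes lie mainly to the right of it, while ligands and receptor chains of the IL-6 family lie on both sides.

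Several cell types that can make these proteins also differed between the groups, and their part in the results was not tested. Some genes stand both in a marker list and in a pathway list, among them Hmox1, Il1r2, Mmp9, Fpr1, Serpina1a and Apoa1. Neutrophil markers were higher in 5 of 13 cases and lower in 1, while 7 did not pass. Among all genes tested 28.0% were higher and 30.6% lower. The neutrophil list had a mean log2 level of 2.45, 2.18 and 1.68 on the unirradiated arrays and 2.91, 2.71 and 2.96 on the irradiated ones. Markers of neutrophil precursor granules were lower in 6 of 10 cases, at 4.92, 4.43 and 3.06 against 2.91, 2.71 and 2.51. On the unirradiated arrays replicate 1 was highest and replicate 3 lowest in both neutrophil lists and in the erythroid precursor list (4.01, 3.65 and 2.32), as for Lcn2, Hp and Orm1. After irradiation the neutrophil list mean was higher on every array, and the precursor and erythroid list means were lower on every array. Hp was higher by a call that did not hold in 7 of 18 alternatives, and Lcn2 lay within its unirradiated range. All 13 macrophage markers were higher, at means of 3.30 to 3.43 without and 5.41 to 5.51 with irradiation, and of 7 monocyte markers 3 were higher and 2 lower.

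All 10 adipocyte markers were higher, at mean log2 levels of -1.70 to -1.13 without and 1.53 to 1.73 with irradiation, and so were all 9 mesothelium markers, all 10 markers of fibroblasts and stroma, and 7 of 9 endothelial markers (the other 2 did not pass). The mesothelium list stood at -1.91, -3.14 and -1.63 without and 0.44, 0.52 and 0.24 with irradiation, so that unirradiated replicate 2 was lowest, as for Saa3. All 9 B cell markers, 9 of 10 T cell markers and all 9 erythroid precursor markers were lower, with median log2 changes of -2.81, -1.72 and -6.69. Exocrine pancreas markers were higher in 15 of 16 cases, at 6.32 to 6.76 after irradiation against -4.52, 2.73 and 0.41 before. Unirradiated replicate 2 was the highest of its group in the pancreas list, as for Hamp2 and Itih4, and the lowest of its group for Saa3 and Il6st. Such matches of order among 3 arrays, here and above, were not counted over all genes, and a link was not tested. Of 13 hepatocyte markers, Alb, Apoa1 and Cps1 were well above background on 0 of 6 arrays; 7 of the 10 tested were higher and 1, Ahsg, was lower, and the list stood at -4.53 to -4.26 without and -3.85 to -3.56 with irradiation.

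**Figure D4:**
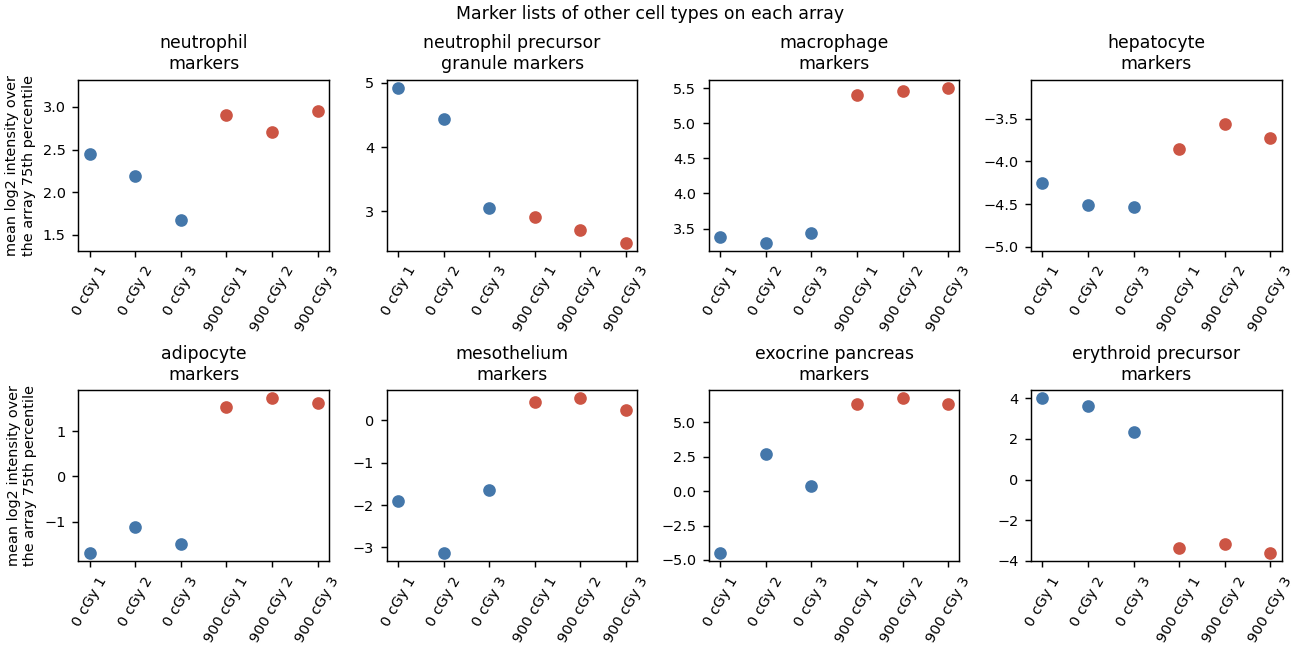
Mean log2 intensity over the array's 75th percentile (vertical axis) of 8 marker lists on each unirradiated (0 cGy 1 to 3, blue) and irradiated (900 cGy 1 to 3, red) array. The groups lie apart in all 8 lists, and in the neutrophil precursor and erythroid lists unirradiated replicate 3 lies below replicates 1 and 2.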

How the data were processed

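The authors read the images with Agilent Feature Extraction 10.5.1.1, per the submitters' processing notes. Per the file headers, its deposited processed intensity has background subtracted and spatial trends removed, and no scaling between arrays was done. Weak spots can carry a surrogate value, and differences of dim genes such as Lif and Saa2 may depend on it, which was not tested. The deposited log2 value table, centred per probe, served as an alternative. Its scale, centring and direction, which the labels used here do not state, were found from the scanner values: after percentile scaling and subtraction of the median per probe, these gave Pearson r across probes of 0.99994 to 0.99997, with column medians of 0.047, -0.0059 and -0.047 for unirradiated and -0.025, 0.018 and -0.0082 for irradiated arrays.

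Each array's log2 intensity was reduced by that of its 75th percentile (1114 to 1403) over 59305 non-control spots; between 91 and 146 outlier spots per array were left out and spots of 1 probe averaged. No spot was saturated, and between 39016 and 41245 probes per array were well above background; the number of arrays limits the precision. Of 55681 probes, 39670 passed the filter and entered the test, two-sided, by lmFit and eBayes of limma 3.58.1 (R 4.3.3), with Benjamini-Hochberg adjustment; the script was tested on simulated data. All arrays were on 1 slide and in 1 scan, the unirradiated arrays and irradiated replicate 1 in row 1 and the other irradiated arrays in row 2. Spike-in levels over the 75th percentile were 2.41 to 2.76 without and 2.72 to 2.96 with irradiation. Groups and replicates came from the sample titles, and the design text gives each array as a separate pool. Probe positions are those of the files (mm9); exon annotation of that build was not used here. Upstream sequences were taken from RefSeq and aligned with Biopython 1.88.

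The 10 genes and the lists were chosen with earlier results of these data known. Besides the 10 genes, the text names in each list the 3 genes with the largest change among those past the threshold and well above background on all 6 arrays (no listed gene with a bound passed); 1 gene that this rule names is not reported here. The other genes of the lists that are named were chosen after their values were seen. The alternatives were other background corrections, scalings, filters and tests, the deposited table, slide row, each array left out, and the replicate number as a block.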

Additional observations from a re-analysis of the deposited data

How the results depend on the processing

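Over 18 alternatives Saa1, Saa3 and Il6st kept their direction and their call. Lif did so over 17, since the filter on all 6 arrays leaves it out. It passed the main filter only through the irradiated arrays, so that its call is a description here too. Several of the alternatives, such as the filters and the replicate block, leave the log2 change as it was and bear only on the call. Hp did not pass in 7 of 18 alternatives. These were no filter on dim probes (log2 change 1.18), slide row as a block (1.39), slide row 1 alone (1.39) and, for the rest, 1 array left out. Il6 did not pass with slide row as a block (1.05), nor Osm with slide row 1 alone (-0.66). Leaving out 1 array at a time, Hp ranged from 0.72 to 1.54, Lcn2 from -1.07 to -0.030 and Orm1 from -0.15 to 0.75; Lcn2 passed and Orm1 changed sign without unirradiated replicate 3. Of the 10 genes, 0 were lower with slide row 1 alone, which has 1 irradiated array assumed to vary like the others, and between 1 and 2 when 1 array was left out. Probes called higher numbered 10484, or 6698 with spike-in scaling and 6041 in slide row 1; those called lower numbered 12318, or 5965 in slide row 1. With spike-in scaling 29.4% of called probes were higher in place of 46.0%, the median of all probes was -0.34 in place of -0.07, and 14 pathway genes were lower in place of 8; all 7 calls among the 10 genes held. The cause of these differences was not tested. The labels do not say whether replicate numbers pair the arrays, and weak correlations cannot decide it. Correlations of deviations were 0.07, 0.11 and -0.01 for numbers 1 to 3. Numbers 1 and 2 correlated best with their own number, and 3 did not. With the replicate number as a block 9930 probes were higher and 11294 lower, and no call among the 9 tested genes changed, Hp having limma adjusted p = 0.0321. Signal over background limits Lif and Saa2, whose differences were 0.50 and 0.83 with normexp background correction and its offset of 50.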
